A study of Mus musculus with 13 samples.

Results

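The genes described here write, erase or read acetyl groups on histone lysines in macrophages. They are 35 genes picked by name out of the 24445 genes with a symbol in the count table, and comprise 13 acetyltransferases, 11 zinc-dependent deacetylases, 6 sirtuins, the corepressor Ncor1 and 4 bromodomain readers. Each gene was represented by its RefSeq transcript with the highest total count. Of the 35 genes, 34 passed the filter on low counts, against 11942 of all genes. The exception was Hdac11, the class IV deacetylase, which had 0 to 7 reads per library and 27 in all, so that a difference in Hdac11 was not detectable at this depth.

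RNA-seq was performed on bone marrow-derived macrophages (BMDMs), which are bone marrow cells grown into macrophages in medium conditioned by L929 fibroblasts, from female mice. Control BMDMs, labelled WT, came from Acly fl/fl mice on a C57Bl/6J background, and AclyM-KO BMDMs, labelled KO, came from Acly fl/fl mice that also carried Lyz2-Cre, in which the lysozyme M promoter drives Cre in myeloid cells and the floxed part of Acly is deleted there. Both genotypes thus carried the floxed alleles, only the AclyM-KO cells carried Cre, and all BMDMs were stimulated with lipopolysaccharide (LPS), a bacterial cell wall component, for 3 h or 24 h. There were 3 libraries of each genotype at 3 h, 4 control libraries at 24 h and 3 AclyM-KO libraries at 24 h, and no unstimulated library was used here. The age of the donor mice was not given in the sources used here. The labels did not say whether replicates came from separate mice or cultures, so p-values measure the spread between these libraries, which may be technical.

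Acetyltransferases move the acetyl group of acetyl-CoA onto histone lysines, which loosens the contact of the histone tail with DNA, and bromodomain proteins bind the acetylated lysine. Zinc-dependent deacetylases and the NAD+-dependent sirtuins take the group off again. Acly, ATP citrate lyase, makes acetyl-CoA from citrate in the cytosol and nucleus and is therefore a source of the substrate of the writers. In macrophages, LPS signalling through Toll-like receptor 4 and NF-kB recruits acetyltransferases to inflammatory genes, and deacetylases held by corepressors such as Ncor1 counter this. The comparisons below asked whether transcripts of this machinery differed between control and Acly-deficient BMDMs, and how they moved between the early and the late phase of the LPS response.

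The libraries held 21274102 to 59577343 reads counted to transcripts, except replicate 1 of the control at 24 h with 34467, in which 19 of the 35 genes had no read. That library was left out of all values below unless stated, so that n = 3 in each group. Levels are given as CPM, in which the counts of a transcript are divided by the TMM-normalised size of the library. For the cell type markers, the total counts of the library were used instead. Acly itself had 105, 107 and 106 CPM in control and 37.7, 46.2 and 41.5 CPM in AclyM-KO BMDMs at 3 h, and 113, 109 and 107 against 30.1, 30.5 and 29.1 CPM at 24 h. It fell by 1.34 on the log2 scale at 3 h and by 1.88 at 24 h, with reads remaining in every AclyM-KO library. All 9 macrophage markers were detected in every group. The summed macrophage markers stood at 9090 to 9220 CPM in control and 6420 to 7060 in AclyM-KO BMDMs at 3 h, and 6680 to 6990 against 4940 to 5020 at 24 h. Without Lyz2, the gene that carries the Cre insertion, it was 4360 to 4400 against 4320 to 4420 CPM at 3 h, and 4040 to 4220 against 3910 to 4090 at 24 h. The 12 neutrophil markers summed to 18.5 to 19.7 CPM in control and 26.4 to 30.4 in AclyM-KO BMDMs at 3 h, and to 4.84 to 7.35 against 6.53 to 7.51 at 24 h, with Ly6g and Retnlg at 0 throughout. Mmp8 made up most of the 3 h difference, with 6.02 to 6.89 CPM in control and 13.1 to 19.2 in AclyM-KO BMDMs, while S100a8, S100a9 and Ngp overlapped between genotypes. Marker lists of B cells, T and NK cells, dendritic cells, fibroblasts, and mast cells and basophils each summed to at most 2.49 CPM in any library. The part of these markers in the results below was not tested.

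Levels were compared between genes as CPM per kb of transcript. Brd2, a BET family reader that binds acetylated histone H4, had the highest level in all 4 groups, at 95.2 ± 3.2 (SD, n = 3) in control BMDMs at 3 h. It was followed by Sirt2, a mainly cytosolic sirtuin that deacetylates tubulin as well as histones, at 48.1 ± 3.15, by the nuclear receptor coactivator Ncoa3 at 24.1 ± 0.634 and by Hat1, which acetylates newly made histone H4 before its deposition, at 21.6 ± 2.07. The SD ranges of Ncoa3 and Hat1 overlapped, while those of the genes above them did not. Kat5 at 15.0 ± 0.705 and Kat6a at 14.2 ± 1.04 came next, with overlapping SD ranges. The lowest levels in these cells belonged to the class IIa deacetylase Hdac7 at 0.478 ± 0.0366, to Kat6b at 0.349 ± 0.0174 and to the mitochondrial sirtuin Sirt5 at 0.326 ± 0.118, and Kat6b and Sirt5 did not differ beyond their spread. Among the class I deacetylases the order was Hdac2 at 10.9 ± 0.659, Hdac3 at 8.74 ± 0.231, Hdac1 at 6.06 ± 0.133 and Hdac8 at 1.56 ± 0.437. Of the paralogous coactivators Ep300 and Crebbp, Ep300 was the higher, at 12.2 ± 1.05 against 2.62 ± 0.183.

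**Figure D1:**
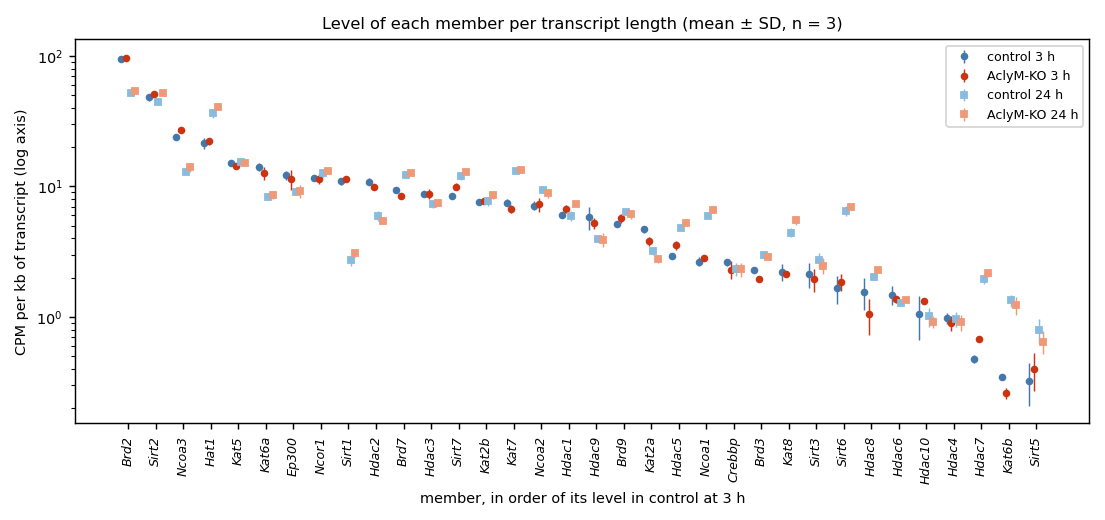
Mean level of the 34 tested genes in CPM (library-size scaled counts) per kb of transcript, on a log axis, in the 4 groups, ordered by the control at 3 h; points are means and lines the SD over 3 libraries. Brd2 leads at 95.2 and Sirt5 is last at 0.326 in the control at 3 h, and Sirt1 (11 against 2.74) and Sirt6 (1.66 against 6.53) are among the genes whose 3 h and 24 h points lie far apart.

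Few transcripts of the histone acetylation machinery passed the test between control and AclyM-KO BMDMs, in shares near or below those over all genes. After 3 h of LPS, 4 of the 34 genes passed the test: the coactivator Ncoa3 and the class IIa deacetylases Hdac5 and Hdac7 were higher in AclyM-KO BMDMs, and the acetyltransferase Kat2a, the GCN5 subunit of the SAGA complex, was lower. Their fold changes ran from 0.81 for Kat2a to 1.42 for Hdac7. The test was edgeR's quasi-likelihood test with Benjamini-Hochberg adjustment over all transcripts, at an adjusted p under 0.05. The 3 genes that were higher made up 8.82% of those tested, against 8.52% of all genes called higher, and the 1 that was lower made up 2.94%, against 6.92% of all genes. With the fold threshold of the study's methods added (0.75 on the log2 scale), 0 of the 34 were called and 2.01% of all genes. By edgeR, 11 of the 34 had an unadjusted p under 0.05, as had 3339 of all 11942 genes. The median log2 fold change was -0.009 over the 34 genes and -0.005 over all genes, with 17 genes above and 17 below 0, and the median size of the change was 0.145 against 0.153.

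Kat2a (NM_020004, gene span GRCm38 chr11:100704746-100712485, as for the spans that follow) stood at 15.2, 14.2 and 13.6 CPM in the control libraries at 3 h and at 12.7, 11.3 and 10.8 CPM in the AclyM-KO libraries. Every control library was above every AclyM-KO library, and the log2 fold change was -0.30 (SE 0.10, adjusted p = 0.0282). Ncoa3 (NM_008679, chr2:165992637-166073242) stood at 177, 182 and 187 CPM in control and at 211, 205 and 196 CPM in AclyM-KO BMDMs. These groups did not overlap either, with a log2 fold change of 0.17 (SE 0.05, adjusted p = 0.0323), a 1.12-fold difference. The calls of Kat2a and Ncoa3 each held in 14 of 19 alternative settings.

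Hdac5 (NM_001077696, chr11:102195747-102230172) and Hdac7 (NM_001204275, chr15:97792661-97844502) belong to the class IIa deacetylases, which shuttle between nucleus and cytoplasm, bind MEF2 factors and have weak catalytic activity of their own. Hdac5 had 11.3, 11.1 and 10.9 CPM in control and 13, 14.7 and 12.5 CPM in AclyM-KO BMDMs at 3 h, a log2 fold change of 0.27 (SE 0.09, adjusted p = 0.0401). Hdac7 had 2.13, 1.92 and 1.84 CPM against 2.82, 2.62 and 2.93 CPM, a log2 fold change of 0.50 (SE 0.18, adjusted p = 0.0492). Both pairs of groups were without overlap. Hdac7 was read from 37 to 43 counts per control library, and its call was the least firm, since it passed the test under 4 of 19 alternative settings. The other class IIa members did not follow them past the test, with log2 fold changes of -0.12 (SE 0.13) for Hdac4 and -0.14 (SE 0.12) for Hdac9.

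The count of 4 rested on single libraries. Without replicate 1, 2 or 3 of the control at 3 h it was 0, 1 and 2, and without replicate 2 or 3 of the AclyM-KO at 3 h it was 2 in each case. It was also 0 when the 3 h libraries were fitted alone, and 2 with DESeq2, which called Kat2a and Ncoa3. With all 13 libraries in the fit it was 2, Kat2a and Hdac5.

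Genes near the threshold at 3 h were Sirt7, a nucleolar sirtuin, with a log2 fold change of 0.24 (SE 0.09, adjusted p = 0.0512), and the X-linked class I deacetylase Hdac8 with -0.59 (SE 0.22, adjusted p = 0.0644). Sirt7 had 13.7, 15.0 and 15.0 CPM in control and 18.3, 16.3 and 17.2 CPM in AclyM-KO BMDMs, with no overlap. Hdac8 had 3.77, 2.11 and 3.19 CPM against 2.72, 1.49 and 1.88 CPM, and here the groups overlapped. Kat6b had 2.23, 2.43 and 2.44 CPM in control and 1.84, 1.57 and 1.88 CPM in AclyM-KO BMDMs, without overlap, at a log2 fold change of -0.43 (SE 0.20, adjusted p = 0.157). In all, 10 of the 34 genes had groups that did not overlap at 3 h, 29.4% against 30.1% of all genes, and Hdac1, Brd9, Brd3 and Brd7 complete this list, the first pair higher and the last pair lower in AclyM-KO BMDMs. For Hdac1 the nearest libraries of the 2 genotypes both round to 12.7 CPM.

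For most members the data bounded the difference to less than the fold threshold of the study's methods. The 95% interval of the log2 fold change at 3 h lay within 0.75 on either side of 0 for 30 of the 34 genes. The exceptions were Kat6b, Hdac7, Hdac8 and Sirt5. It lay within 0.5 for 26 genes, with Kat2a, Hdac10, Sirt3 and Sirt6 also outside. For Ep300 the interval ran from -0.375 to 0.165, for its paralog Crebbp from -0.439 to 0.064, for the corepressor Ncor1 from -0.160 to 0.099 and for Hdac3, the deacetylase that Ncor1 holds and activates, from -0.160 to 0.184. Sirt1, a nuclear sirtuin that deacetylates NF-kB among other proteins, lay between -0.077 and 0.217, and Brd2 between -0.060 and 0.123. Sirt5, with 7 to 16 reads per library at 3 h, could not be placed better than between -0.515 and 1.15.

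**Figure D2:**
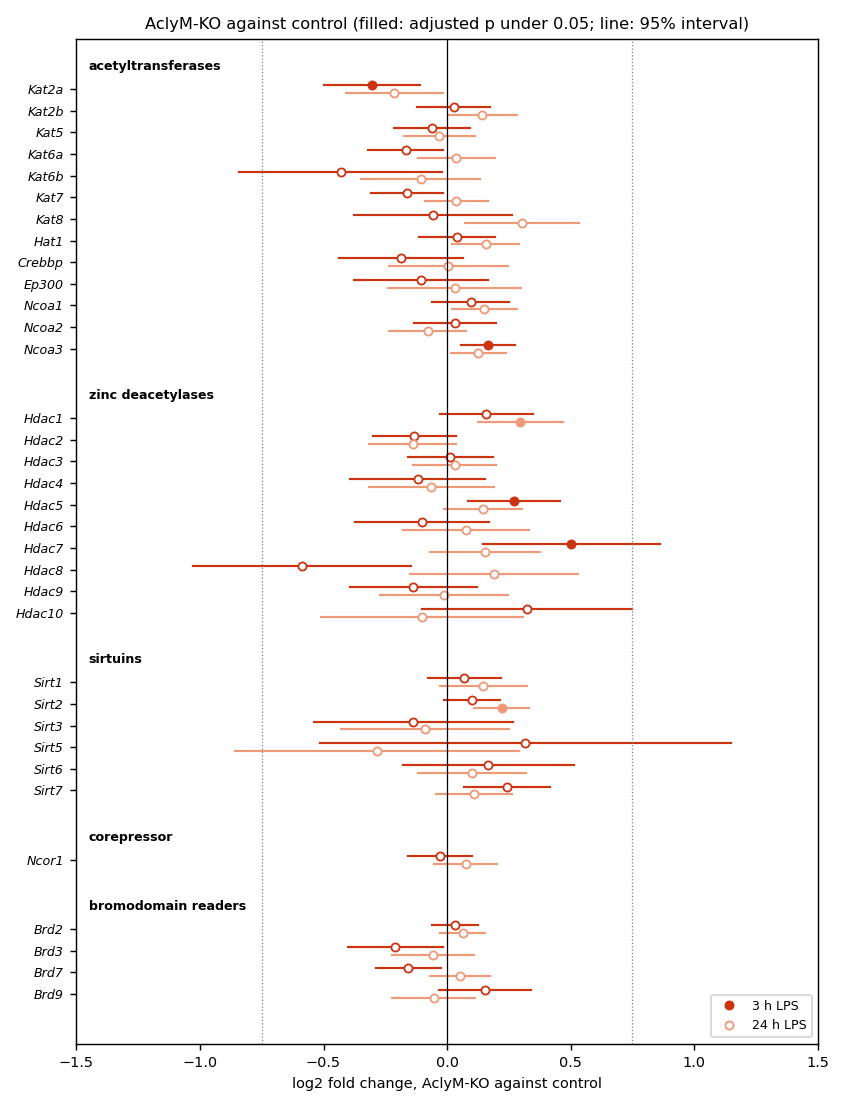
Log2 fold change of AclyM-KO against control BMDMs for each of the 34 genes after 3 h (dark) and 24 h (light) of LPS; lines are 95% intervals, filled points passed the test at an adjusted p under 0.05 and dotted lines mark 0.75 in either direction. The 4 genes called at 3 h and the 2 called at 24 h all lie inside the dotted lines, from -0.30 for Kat2a to 0.50 for Hdac7.

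After 24 h of LPS, 2 of the 34 genes passed the test, and both were erasers that were higher in AclyM-KO BMDMs: Sirt2, and Hdac1, a class I deacetylase of the Sin3, NuRD and CoREST complexes. They made up 5.88% of the genes tested, against 8.31% of all genes called higher. No member was called lower by edgeR (5.59% of all genes were) and 0 were past the fold threshold (1.38% of all genes). The unadjusted p by edgeR was under 0.05 for 8 members and for 3143 of all 11942 genes. DESeq2 also called Sirt2 and Hdac1 and no other of the 34. The median log2 fold change was 0.045, against 0.005 over all genes, and its median size was 0.10 against 0.134.

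Sirt2 (NM_001122765, chr7:28766752-28788665) had 82.3, 83.3 and 78.5 CPM in the control libraries at 24 h and 95.1, 91.0 and 98.2 CPM in the AclyM-KO libraries. All AclyM-KO libraries were above all control libraries, with a log2 fold change of 0.22 (SE 0.05, adjusted p = 0.00525). It passed the test in 19 of 19 alternative settings, with log2 fold changes of 0.193 to 0.25. At 3 h Sirt2 had 83.9, 85.2 and 94.4 CPM against 96.0, 91.4 and 95.1 CPM, where the groups overlapped and the log2 fold change was 0.10 (SE 0.06, adjusted p = 0.252).

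Hdac1 (NM_008228, chr4:129516104-129542646) had 10.9, 12.4 and 13.1 CPM in control and 14.9, 14.8 and 15.4 CPM in AclyM-KO BMDMs at 24 h, again without overlap. The log2 fold change was 0.30 (SE 0.08, adjusted p = 0.0162), and the call was lost without replicate 3 of the AclyM-KO at 24 h and without replicate 2 of the control at 24 h, which left 1 called gene. At 3 h Hdac1 had 12.7, 12.2 and 12.2 CPM against 12.7, 14.3 and 14.3 CPM, a log2 fold change of 0.16 (SE 0.09, adjusted p = 0.274). Its close paralog Hdac2, which shares these complexes, did not pass at either time, with log2 fold changes of -0.13 (SE 0.08) at 3 h and -0.14 (SE 0.09) at 24 h.

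Of the genes called at 3 h, Kat2a at 24 h had 10.6, 9.55 and 9.32 CPM in control and 7.96, 8.40 and 8.87 CPM in AclyM-KO BMDMs, a log2 fold change of -0.21 (SE 0.10, adjusted p = 0.147). Ncoa3 had 98.0, 97.2 and 95.8 CPM against 115, 105 and 98.1 CPM, a log2 fold change of 0.13 (SE 0.05, adjusted p = 0.12). Neither pair of groups overlapped, but neither gene passed. Hdac5 had 17.5, 19.0 and 18 CPM against 21.2, 18.9 and 20.1 CPM, and Hdac7 had 8.65, 8.27 and 7.30 CPM against 9.50, 8.44 and 8.67 CPM, both with overlap. Kat8, the acetyltransferase MOF that acetylates histone H4, was the nearest to the threshold among the others, with 6.89, 6.52 and 7.57 CPM in control and 8.18, 8.49 and 9.52 CPM in AclyM-KO BMDMs and a log2 fold change of 0.30 (SE 0.11, adjusted p = 0.07). At this time 9 of the 34 genes had groups that did not overlap, 26.5% against 33.0% of all genes. They were Kat2a, lower, and Kat8, Ncoa1, Ncoa3, Hdac1, Hdac6, Hdac8, Sirt2 and Brd2, higher.

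**Figure D3:**
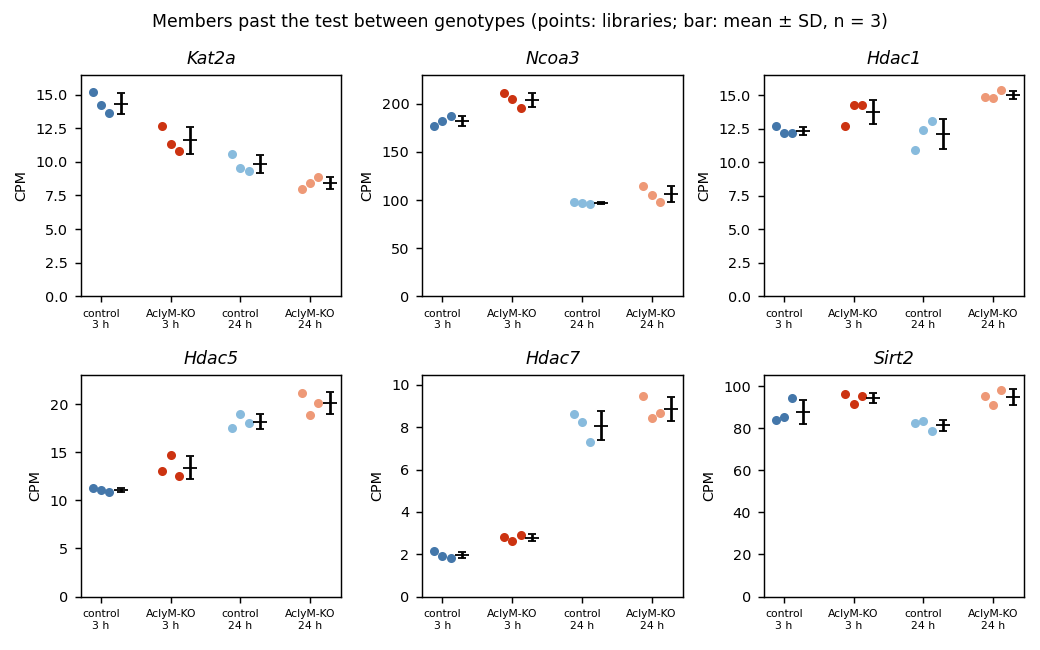
CPM in each library (points) with mean and SD (bars, n = 3) of the 6 genes that passed the test between genotypes at either time; every vertical axis starts at 0. Kat2a is lower in AclyM-KO at 3 h (10.8 to 12.7 against 13.6 to 15.2 CPM), and Sirt2 is higher at 24 h (91.0 to 98.2 against 78.5 to 83.3 CPM).

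The 95% intervals at 24 h lay within 0.75 of 0 for 33 of the 34 genes, Sirt5 being the exception, and within 0.5 for 30 of them. For Ep300 the interval was -0.239 to 0.299, for Crebbp -0.236 to 0.246, for Hdac3 -0.136 to 0.197, for Brd2 -0.030 to 0.155 and for Ncor1 -0.052 to 0.202. Summed per class and given as a description, the sirtuin transcripts at 24 h came to 67.8 to 70.9 CPM per kb in control and 75.6 to 79.3 in AclyM-KO BMDMs, of which Sirt2 supplied 44.5 ± 1.4 and 51.8 ± 1.98. The summed acetyltransferases stood at 127 to 132 against 133 to 141, the zinc-dependent deacetylases at 33.7 to 36.4 against 37.1 to 37.2 and the readers at 72.4 to 74.2 against 74.3 to 76.3. At 3 h the sums of the acetyltransferases (119 to 128 against 118 to 126) and of the zinc-dependent deacetylases (38.1 to 41.6 against 38.4 to 41.0) overlapped between genotypes.

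The difference between the 2 genotype effects was tested as an interaction, and 0 of the 34 genes passed with edgeR, against 9.59% of all genes. DESeq2 also called 0. By edgeR, 3 had an unadjusted p under 0.05 (Hdac8, Brd7 and Kat7), as had 2822 of all 11942 genes. Hdac8 had the largest value, with a log2 fold change 0.78 higher at 24 h than at 3 h (SE 0.27, adjusted p = 0.0684). It was called without replicate 1 of the AclyM-KO at 3 h, where Kat6a was called too, and without replicate 2 of the control at 3 h. None of the genes called at 1 time point only was thus shown to differ in its genotype effect between the time points. The 95% interval of the interaction was within 0.75 of 0 for 28 of the 34 genes.

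As over all genes, many more of these genes passed the test between time points than between genotypes. In control BMDMs, 14 of the 34 genes were higher and 9 lower after 24 h than after 3 h (41.2% and 26.5%, against 38.9% and 36.0% of all genes). With the fold threshold added, 13 genes were called, 38.2% against 40.4% of all genes. In AclyM-KO BMDMs, 14 were higher and 10 lower (41.2% and 29.4%, against 39.4% and 36.3% of all genes), and 12 were past the fold threshold, 35.3% against 42.0%. The median size of the change was 0.485 on the log2 scale in control and 0.529 in AclyM-KO BMDMs, below the 0.597 and 0.63 over all genes. As each time contrast uses libraries of the genotype contrasts, the same reads stand behind both sets of values. Because the RNA came from bulk cultures, fewer cells with a transcript and less transcript per cell cannot be told apart.

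Across the 2 genotypes, whose libraries are separate, 12 genes were higher in both and 9 lower in both, and none was called in opposite directions. How many of all genes were called in both genotypes was not counted, so these counts are given as a description. Within control BMDMs 38.9% of all genes were called higher and 36.0% lower, and within AclyM-KO BMDMs 39.4% and 36.3%. Sirt5 and Brd9 were called in control BMDMs only and Hdac8, Hdac10 and Ncor1 in AclyM-KO BMDMs only, and none of these 5 passed the interaction test. Kat2b, Kat5, Crebbp, Hdac1, Hdac4, Hdac6, Sirt2 and Sirt3 were called in neither. Among the calls in AclyM-KO BMDMs, those of Ep300, Hdac3, Hdac10 and Ncor1 depended on single libraries. Ncor1 was lost without replicate 2 of the AclyM-KO at 3 h, and so was Hdac3, which was also lost without replicate 1 of the AclyM-KO at 24 h. Ep300 was lost without replicate 1 of the AclyM-KO at 3 h, replicate 2 or 3 of the AclyM-KO at 24 h or replicate 2 of the control at 24 h. Hdac10 was lost without replicate 3 of the AclyM-KO at 3 h or replicate 2 or 3 of the AclyM-KO at 24 h.

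**Figure D4:**
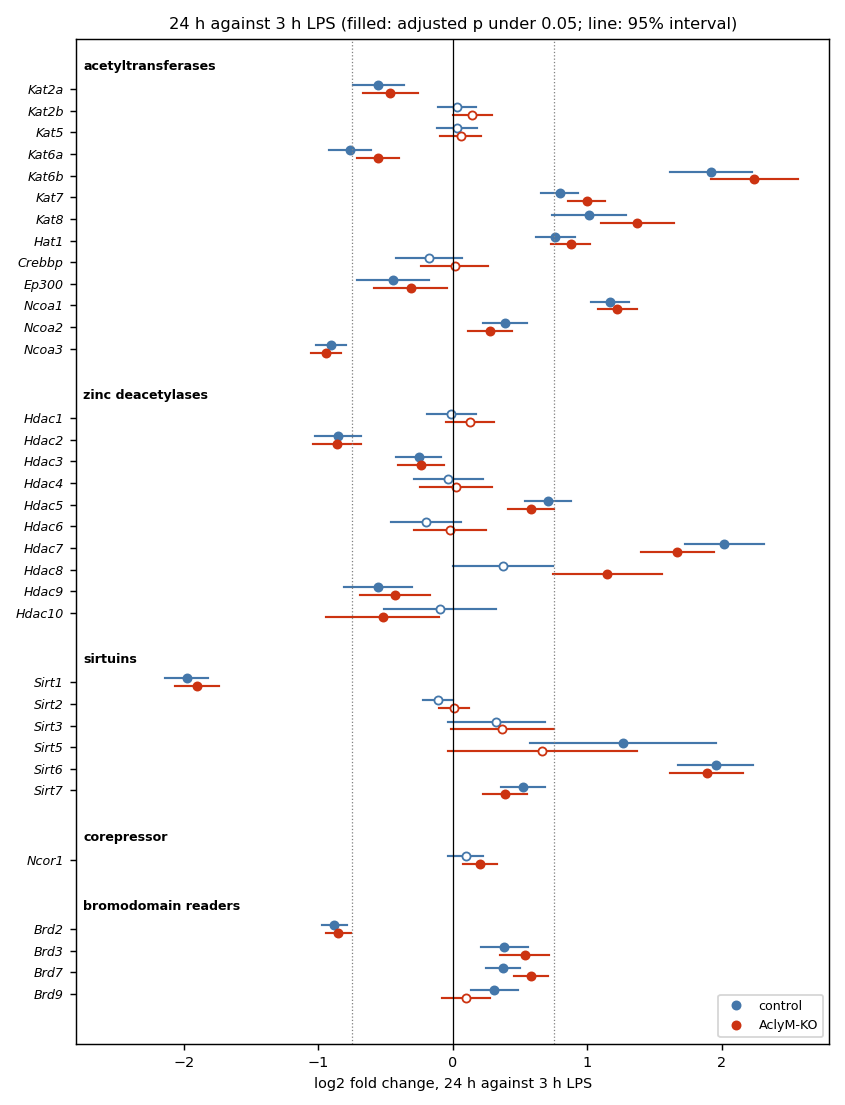
Log2 fold change between 24 h and 3 h of LPS for each of the 34 genes in control (blue) and AclyM-KO (red) BMDMs; lines are 95% intervals, filled points passed the test at an adjusted p under 0.05 and dotted lines mark 0.75 in either direction. Hdac7 (2.02 and 1.67), Sirt6 (1.96 and 1.89) and Kat6b (1.92 and 2.24) lie farthest to the right and Sirt1 (-1.98 and -1.90) farthest to the left.

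The sirtuins moved in opposite directions over time. Sirt1 fell from 40.6, 38.7 and 43.9 CPM at 3 h to 9.26, 10.3 and 11.2 CPM at 24 h in control BMDMs, to 0.253 of its early level. In AclyM-KO BMDMs it fell from 43.2, 43.3 and 42.7 to 12.1, 10.7 and 11.8 CPM, and the log2 changes were -1.98 (SE 0.08, adjusted p = 3.53e-20) and -1.90 (SE 0.08, adjusted p = 1.33e-19). The 24 h libraries of both genotypes thus lay far below every 3 h library. Sirt6, a chromatin-bound sirtuin that deacetylates histone H3, rose from 3.77, 3.37 and 2.29 CPM to 13.3, 12.6 and 11.2 CPM in control BMDMs, and from 2.97, 4.07 and 3.51 to 12.8, 13.8 and 12.6 CPM in AclyM-KO BMDMs. Its log2 changes were 1.96 (SE 0.14, adjusted p = 5.33e-14) and 1.89 (SE 0.13, adjusted p = 8.13e-14). Per kb of transcript in control BMDMs, Sirt1 went from place 9 among the 34 genes to place 25 while Sirt6 went from place 27 to place 15. Sirt7 rose as well, by 0.52 (SE 0.08) in control and 0.39 (SE 0.08) in AclyM-KO BMDMs. Sirt5, the mitochondrial desuccinylase, rose in control BMDMs from 0.645, 0.374 and 0.349 CPM to 0.902, 1.36 and 1.07 CPM, a log2 change of 1.27 (SE 0.34, adjusted p = 0.00131). In AclyM-KO BMDMs Sirt5 had 0.359, 0.700 and 0.625 CPM at 3 h and 0.901, 1.09 and 0.729 CPM at 24 h, with no overlap, a log2 change of 0.67 (SE 0.34) and an adjusted p of 0.0788.

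Among the zinc-dependent deacetylases the class IIa members diverged. Hdac7 rose from 2.13, 1.92 and 1.84 CPM to 8.65, 8.27 and 7.30 CPM in control BMDMs and from 2.82, 2.62 and 2.93 to 9.50, 8.44 and 8.67 CPM in AclyM-KO BMDMs. The log2 changes were 2.02 (SE 0.14, adjusted p = 7.4e-14) and 1.67 (SE 0.13, adjusted p = 1.44e-12), and the 3 h and 24 h libraries were well apart. Hdac5 rose by 0.71 (SE 0.09) and 0.58 (SE 0.08), Hdac9 fell by 0.56 and 0.43 on the log2 scale, and Hdac4 had log2 changes of -0.03 and 0.02 that did not pass. Of class I, Hdac2 fell from 20.6 to 23.2 CPM at 3 h to 10.8 to 12.9 CPM at 24 h in control BMDMs, a log2 change of -0.86 (SE 0.08), and by -0.86 (SE 0.09) in AclyM-KO BMDMs. Hdac3 fell by 0.25 and 0.24 on the log2 scale, and Hdac1 had log2 changes of -0.01 and 0.12, neither past the test. Hdac1 stood between 10.9 and 13.1 CPM in all 6 control libraries. Hdac8 had a log2 change of 0.37 (SE 0.18, adjusted p = 0.0651) in control and rose by 1.15 (SE 0.20, adjusted p = 5.43e-06) in AclyM-KO BMDMs.

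The acetyltransferases moved in both directions, also within families. Of the MYST family, Kat6b rose from 2.23, 2.43 and 2.44 CPM to 8.77, 10.1 and 8.29 CPM in control BMDMs, a log2 change of 1.92 (SE 0.15, adjusted p = 6.04e-13). In AclyM-KO BMDMs it rose from 1.84, 1.57 and 1.88 to 9.61, 7 and 8.37 CPM, a log2 change of 2.24 (SE 0.16, adjusted p = 8.94e-14). Its paralog Kat6a, which shares the BRPF complexes with Kat6b, went the other way, from 124 to 140 CPM at 3 h to 71.1 to 79.7 CPM at 24 h in control BMDMs (log2 change -0.77, SE 0.07), so that Kat6a stayed the more abundant of the pair per kb, at 8.37 ± 0.507 against 1.34 ± 0.142. Kat8 rose from 3.13, 4.07 and 3.29 CPM to 6.89, 6.52 and 7.57 CPM in control BMDMs, a log2 change of 1.01 (SE 0.13, adjusted p = 5.6e-08). In AclyM-KO BMDMs Kat8 rose from 3.23, 3.32 and 3.56 to 8.18, 8.49 and 9.52 CPM, a log2 change of 1.37 (SE 0.13, adjusted p = 1.1e-10). Kat7, the HBO1 enzyme linked to replication origins, rose from 25.2 to 28.3 CPM to 44.9 to 47.5 CPM in control BMDMs, and Kat5, the TIP60 enzyme, was among those that did not pass.

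The steroid receptor coactivators, which bind nuclear receptors and bring in Ep300 and Crebbp, also moved both ways. Ncoa1 rose from 20.1, 17.8 and 20.6 CPM to 45.5, 42.6 and 43.4 CPM in control BMDMs and from 20.4, 21.8 and 20.1 to 51.1, 47.9 and 46.9 CPM in AclyM-KO BMDMs, with log2 changes of 1.17 (SE 0.07, adjusted p = 1.4e-15) and 1.22 (SE 0.07, adjusted p = 3.9e-16). Ncoa3 fell from 177, 182 and 187 CPM to 98.0, 97.2 and 95.8 CPM in control BMDMs and from 211, 205 and 196 to 115, 105 and 98.1 CPM in AclyM-KO BMDMs, with log2 changes of -0.91 (SE 0.05, adjusted p = 1.06e-15) and -0.95 (SE 0.05, adjusted p = 3.87e-16). In both genes the time points were apart in every library. Ncoa2 rose by 0.39 and 0.28. Ep300 fell by 0.45 and 0.31 on the log2 scale, Crebbp did not pass (-0.18 and 0.02), Kat2a fell by 0.56 and 0.46 and Kat2b did not pass (0.03 and 0.15). Hat1 rose from 30.5 to 36.8 CPM to 53.7 to 62.3 CPM in control BMDMs.

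Of the readers, Brd2 fell from 427 to 456 CPM at 3 h to 239 to 244 CPM at 24 h in control BMDMs and from 452 to 455 to 249 to 254 CPM in AclyM-KO BMDMs, with log2 changes of -0.88 (SE 0.05) and -0.85 (SE 0.05). The summed level of the 4 readers went from 112 ± 3.25 to 73.2 ± 0.926 CPM per kb in control BMDMs. Brd3, the other BET member of the group, rose by 0.38 (SE 0.09) and 0.54 (SE 0.09), and Brd7, a subunit of the PBAF remodelling complex, rose by 0.37 (SE 0.06) and 0.58 (SE 0.06). Brd9, of the non-canonical BAF complex, rose by 0.31 (SE 0.09) in control BMDMs and had a log2 change of 0.10 (SE 0.09, adjusted p = 0.302) in AclyM-KO BMDMs. Long transcripts as a whole had lower values at 24 h. In control BMDMs the median time change was -0.154 over 1255 genes with transcripts of at least 6000 bases. Over 3554 genes under 2000 bases it was 0.107. In AclyM-KO BMDMs the medians were -0.058 for the long and 0.064 for the short transcripts. Between genotypes they were -0.037 and 0.001 at 3 h, 0.054 and -0.039 at 24 h, and 0.097 and -0.034 for the interaction. The part of length in the results, over time and between genotypes, was not tested.

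**Figure D5:**
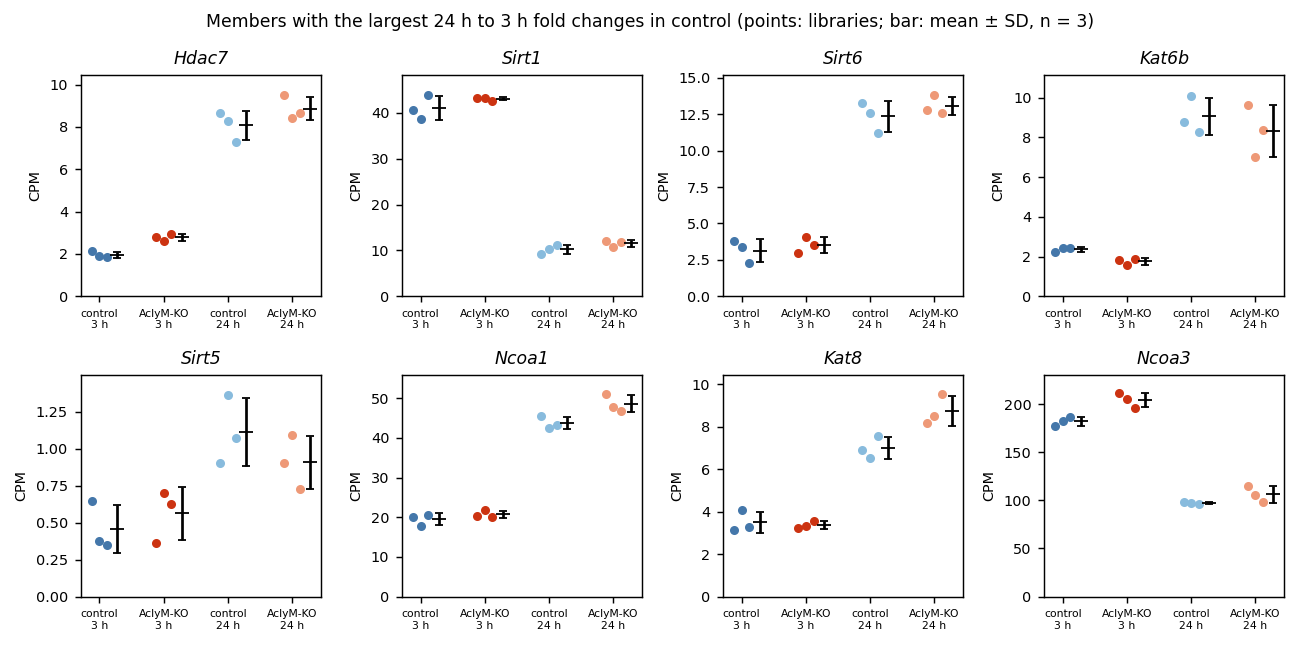
CPM in each library (points) with mean and SD (bars, n = 3) of the 8 genes with the largest changes between 3 h and 24 h in control BMDMs; every vertical axis starts at 0. In each panel except that of Sirt5 the 3 h and 24 h libraries are clearly apart, as for Sirt1 (38.7 to 43.9 against 9.26 to 12.1 CPM over both genotypes).

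Promoter sequences are shown for genes with opposite courses over time, so that the DNA in front of transcripts that fell and rose together can be compared. From the genes past the test over time in control BMDMs with a single listed start, a mean of at least 10 CPM and at most 30 bases of the run inside the gene's span, the pair with the largest falls (Sirt1 and Kat2a) and the pair with the largest rises (Ncoa1 and Kat7) were taken. The limit on the span was set after the runs had been seen and left out Hdac2, Brd3 and Brd7. Each run is the 250 bases before the listed start in RefSeq's annotation of GRCm38.p6, written 5′ to 3′ on the gene's strand, with capitals for the letters of the motifs searched. They lie at chr10:63339036-63339285 (minus strand), chr11:100712468-100712717 (minus strand), chr12:4477183-4477432 (minus strand) and chr11:95310247-95310496 (minus strand) in that order, and 18 bases of the Kat2a run and 24 of the Ncoa1 run fall inside the gene's span in RefSeq.
Sirt1: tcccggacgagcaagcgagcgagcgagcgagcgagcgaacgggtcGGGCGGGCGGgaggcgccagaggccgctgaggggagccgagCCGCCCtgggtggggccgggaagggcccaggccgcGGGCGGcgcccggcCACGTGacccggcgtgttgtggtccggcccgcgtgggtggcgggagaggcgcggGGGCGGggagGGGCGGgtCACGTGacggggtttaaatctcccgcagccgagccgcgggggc
Kat2a: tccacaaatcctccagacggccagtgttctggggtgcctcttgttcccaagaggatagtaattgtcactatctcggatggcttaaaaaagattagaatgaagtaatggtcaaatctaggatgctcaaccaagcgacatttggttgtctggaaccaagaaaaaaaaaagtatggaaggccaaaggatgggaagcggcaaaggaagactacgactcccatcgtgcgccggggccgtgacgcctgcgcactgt
Ncoa1: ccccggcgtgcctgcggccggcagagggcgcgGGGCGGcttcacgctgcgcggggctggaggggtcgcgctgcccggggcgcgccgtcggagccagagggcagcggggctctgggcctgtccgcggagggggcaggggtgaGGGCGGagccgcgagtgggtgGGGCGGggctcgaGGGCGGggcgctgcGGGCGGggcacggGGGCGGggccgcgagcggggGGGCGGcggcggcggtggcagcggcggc
Kat7: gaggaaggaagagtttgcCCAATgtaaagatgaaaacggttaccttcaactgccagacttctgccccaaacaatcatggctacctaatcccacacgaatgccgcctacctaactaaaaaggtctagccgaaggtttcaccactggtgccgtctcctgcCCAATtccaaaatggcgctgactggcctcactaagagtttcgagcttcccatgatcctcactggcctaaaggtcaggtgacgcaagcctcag

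The motifs searched on both strands were the GC box (GGGCGG), the ETS site (CCGGAAG), the CCAAT box (CCAAT), the E-box (CACGTG), the cAMP response element (TGACGTCA), the AP-1 site (TGANTCA), the NF-kB site and the TATA box (TATAAA), and no letters were shared between different motifs. Sirt1 had 6 GC boxes, of which the first pair overlap, and 2 E-boxes, Kat2a had none of these motifs, Ncoa1 had 7 GC boxes, and Kat7 had 2 CCAAT boxes and 0 GC boxes. No motif was in both promoters of one pair and absent from both of the other. Of the 35 genes, 29 were in the promoter table, with 43 promoters. The GC box was in 62.8% of these against 32.7% of all 32851 promoters of the same length, the ETS site in 18.6% against 6.9%, the CCAAT box in 32.6% against 33.8%, the E-box in 7.0% against 6.0% and the AP-1 site in 7.0% against 6.7%. The NF-kB site was in 2.3% against 1.4%, the TATA box in 4.7% against 12.4% and the cAMP response element in 0 of the 43 against 1.5%. The median GC content was 62.4% in the promoters of the group and 52.4% in all, and a match describes the letters only.

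Genes around this machinery were counted from 4 further lists. Of 13 tested genes of acetyl-CoA supply, 4 were higher and 1 lower in AclyM-KO BMDMs at 3 h, and 1 higher and 2 lower at 24 h. Acly, the deleted gene, is in this list and was the 1 lower at 3 h and 1 of the 2 lower at 24 h. The shares over all genes, for these and the next lists, were 8.52% higher and 6.92% lower at 3 h and 8.31% higher and 5.59% lower at 24 h. Besides Acly, 2 of them passed the fold threshold between genotypes. Acss2, which makes acetyl-CoA from acetate, had 2.88, 2.43 and 1.84 CPM in control and 6.51, 8 and 6.35 CPM in AclyM-KO BMDMs at 3 h, a log2 fold change of 1.55 (SE 0.15), while at 24 h it had 29.4, 31.5 and 30.2 against 33.0, 28.6 and 30.2 CPM. Acat2, the cytosolic thiolase that joins acetyl-CoA units toward cholesterol, had 3.18, 3.70 and 3.69 CPM in control and 9.63, 13.4 and 11.7 CPM in AclyM-KO BMDMs at 3 h, a log2 fold change of 1.72 (SE 0.14). At 24 h Acat2 went the other way, with 9.84, 8.82 and 11 CPM in control and 5.67, 5.83 and 6.60 CPM in AclyM-KO BMDMs. Of 28 further subunits of deacetylase complexes, 0 were higher and 3 lower at 3 h, and 3 higher and 2 lower at 24 h. Of 43 further subunits of acetyltransferase complexes, 0 were higher and 2 lower at 3 h, and 2 higher and 3 lower at 24 h. Of 30 other acetyl-lysine readers tested, 0 were higher and 4 lower at 3 h, and 2 higher and 0 lower at 24 h. None of the tested genes of these last 3 lists passed the fold threshold between genotypes. Between 3 h and 24 h in control BMDMs, 10 genes of acetyl-CoA supply were higher and 1 lower, 6 deacetylase complex subunits were higher and 13 lower, 19 acetyltransferase complex subunits were higher and 6 lower, and 13 other readers were higher and 12 lower, against 38.9% and 36.0% of all genes. The interaction called 0 genes of acetyl-CoA supply higher and 4 lower, with Acly among the 4. It called 3 deacetylase complex subunits higher and 1 lower, 1 acetyltransferase complex subunit higher and 0 lower, and 3 other readers higher and 0 lower. Over all genes the share was 9.59% in either direction.

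Some transcripts share exon bases with another gene, and since the strand setting of the counting is not stated in the sources used here, reads could not always be told apart. On the opposite strand, Sirt2 shares 42 exon bases with Nfkbib, Hdac7 shares 29 with Slc48a1, Ncoa3 shares 154 with Sulf2, Kat8 shares 122 with Prss8, Kat5 shares 426 with Rnaseh2c, Hdac4 shares 3536 with Gm26720 and Brd2 shares 360 with H2-DMa. On the same strand, Hdac5 shares 111 with Mir8101 and Sirt7 shares 124 with Mafg. A second transcript with at most 52.3% of the reads of the first was tested for Kat5, Hdac8, Hdac9 and Ncor1, and all other further transcripts tested had at least 97.4%. That of Hdac9, with 43.3% of the reads of the first, fell by 0.77 (SE 0.12) in control and 0.61 (SE 0.13) in AclyM-KO BMDMs, and that of Hdac8, with 45.7%, rose by 1.08 (SE 0.29) in AclyM-KO BMDMs. Neither these nor the second transcripts of Kat5 and Ncor1 passed the test between genotypes. Among the others, further transcripts of Kat2a and Hdac7 passed at 3 h as the first did, and that of Hdac7 with 97.4% of the reads stood at 0.53 (SE 0.18, adjusted p = 0.0401 by edgeR).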

How the data were processed

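Strand-specific mRNA libraries of BMDMs were sequenced by the authors. Their processing notes name CASAVA 1.8.2 and STAR 2.5.2b with mm10, and the study's methods name SAMtools and HOMER2 analyzeRepeats; the strand and isoform settings were not given in the sources used here. The deposited table holds raw counts per RefSeq transcript, whole and not normalized, for 35745 transcripts in 13 libraries, and 0 columns were left unused. RefSeq and GENCODE tables of GRCm38 gave a symbol to 35628 transcripts, and the 117 without one (1.13% of counts) stayed in the fit.

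Samples were grouped by the labels' genotype and treatment. With R 4.3.3 and edgeR 4.0.16, counts of 12 libraries (control 24 h replicate 1 left out) were scaled by TMM, filtered with filterByExpr (19621 transcripts, 11942 genes) and fitted with 4 group means by robust quasi-likelihood. Benjamini-Hochberg adjustment covered all transcripts tested, and a gene was called at an adjusted p under 0.05. The fit was tested on simulated data first. Each SE was derived from the fold change and its F statistic. CPM were computed after TMM, except those of the cell type markers, which used the total counts of each library. Depth limits genes of low counts such as Sirt5 and Hdac11. No 2 replicates agreed within sampling noise (chi-square per degree of freedom 2.66 to 11.9).

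Given per library were genes called between genotypes and the 8 largest time changes in control; the members and lists were chosen with earlier results of these data known. Alternatives were all 13 libraries, DESeq2 1.42.0 and its size factors, no filter, 1 transcript per gene, 1 time point at a time, a replicate block and leaving out each replicate. Promoters came from RefSeq (GRCm38.p6).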

Additional observations from a re-analysis of the deposited data

Results flagged for a closer look

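None of the 34 tested genes of the histone acetylation group was flagged. Of 13 genes of acetyl-CoA supply, 4 had genotype effects that differed between 3 h and 24 h of LPS by edgeR's interaction test. Among these 4 are the 3 named above, of which Acly is the deleted gene itself. The difference (24 h minus 3 h, log2 scale) was -2.45 for Acat2, which was higher in AclyM-KO BMDMs at 3 h and lower at 24 h in every library, -1.54 for Acss2, which was higher at 3 h and overlapped at 24 h, and -0.54 for Acly, which fell further at 24 h. What lies behind these differences was not tested.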

How the results depend on the processing

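The time counts (23 in control, 24 in AclyM-KO) stayed within 1.5 times under every alternative run, and no fold change that passed the test changed sign. Of the 170 fold changes of members, 37 had the other sign under at least 1 alternative (96 of 3128 values). None of these 37 passed the test as reported, none of the 96 values passed it under the alternative, and their reported log2 size was at most 0.188. The 3 h genotype count (4, of which 3 were higher) was also 4 without the low-count filter. There Ncoa3 was higher and Kat2a, Kat6a and Hdac8 were lower, while Hdac5 and Hdac7 did not pass. The count was 2 with all 13 libraries, 2 with DESeq2 and 0 with the 3 h libraries alone. It ranged from 0 to 5 when replicates were left out in turn. The 24 h count (2) ranged from 1 to 2 and the interaction count (0) from 0 to 2 in the same way, and without the low-count filter the interaction called 1 gene, Hdac8. The cause of these changes was not tested, beyond the fewer libraries that some fits used. Deviations of same-numbered libraries from their group means correlated at -0.031 to 0.059. Control 24 h replicate 4 had no library of the same number, and whether libraries were paired in another way was not tested. With a replicate block the counts were 5 at 3 h, 3 at 24 h, 0 for the interaction and 25 for the time effect in each genotype. Control 24 h replicate 4 was alone in its block, so in that fit the control at 24 h rested on replicates 2 and 3. Sirt2 at 24 h passed in 19 of 19 alternatives, Hdac1 in 17, Kat2a and Ncoa3 at 3 h in 14 each, Hdac5 in 11 and Hdac7 in 4. Sirt5, Hdac8, Hdac10, Kat6b, Sirt3 and Hdac7, all of low counts, had the widest intervals at 3 h. The parts of depth and of spread between libraries in these widths were not tested.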

Other observations

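The library left out, replicate 1 of the control at 24 h, held 47 reads of the 35 genes among 34467, a share of 0.1364% (exact 95% binomial interval 0.1002% to 0.1813%, counting error only), against 0.1321% to 0.1359% in the other control libraries at 24 h. Of the long members, 8 had transcripts of at least 6000 bases, and their median deviation from the group mean ran from -0.143 (AclyM-KO 3 h replicate 2) to 0.146 (AclyM-KO 24 h replicate 1) on the log2 scale. Over all 1255 long genes the median deviation ran from -0.041 (AclyM-KO 24 h replicate 3) to 0.063 (AclyM-KO 3 h replicate 1).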
